A study of Homo sapiens with 4 samples.

Results

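The genes described here encode the machinery that binds the cap at the 5′ end of an mRNA, together with the proteins that block it. They are the 4E-binding proteins EIF4EBP1, EIF4EBP2 and EIF4EBP3, the cap-binding proteins EIF4E and EIF4E2, the scaffolds EIF4G1, EIF4G2 and EIF4G3, and the RNA helicases EIF4A1 and EIF4A2. They were chosen by symbol, with earlier results of these data known. All 10 were found among the 16504 gene symbols of the table, with 27 of its 28918 transcripts. RNA-seq was performed on 4 libraries. Their labels name the cells as NB4, an established line of human acute promyelocytic leukemia. Cells of 2 libraries were controls in which CEBPG was present (NC). Cells of the other 2 libraries carried a CEBPG knockdown. CEBPG encodes a basic leucine zipper transcription factor of the C/EBP family. In the study, short hairpin RNAs (shRNAs) were delivered to the cells by lentivirus from the pLKO.1-puro vector, with selection in puromycin. The knockdown labels carry the number 3, which was read as the shRNA used; that reading is an assumption. With 1 shRNA, the effect of CEBPG loss and off-target effects cannot be told apart. Levels are given as FPKM, sequenced fragments set against transcript length and against all mapped reads of a library, summed over the transcripts of a gene. FPKM hold no read counts, so the depth of the libraries was unknown. Nothing in the labels says that the 2 libraries of a group came from separate cultures, so the p-values measure only the spread between these libraries, which may be technical.

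The cap is held by eIF4E, the protein of EIF4E, which joins the scaffold eIF4G and the helicase eIF4A in the complex eIF4F that brings the small ribosomal subunit to the mRNA. The 4E-binding proteins (4E-BPs) occupy the surface of eIF4E to which eIF4G binds, and so hold translation back. The kinase complex mTORC1 phosphorylates the 4E-BPs and makes them release eIF4E. EIF4E2 encodes 4EHP, a relative of eIF4E that binds the cap without joining eIF4G and is known as a repressor of translation. EIF4G2 encodes DAP5, a scaffold that lacks the eIF4E-binding region of its relatives.

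The label was checked against cell type markers. Of 20 erythroid genes, 14 were above 10 FPKM in every library, with HBG2 (a fetal globin) at 2890 to 3766 FPKM. The 4 genes HBB, SLC4A1, AHSP and EPB42, which mark later erythroid cells, were under 1 FPKM in every library. In the controls the summed erythroid level was 8452 and 7976 FPKM and in the knockdown 9440 and 8859 FPKM, and of the 16 genes tested 3 were higher and 3 lower by the limma test, with 20.9% of all tested genes called. Of 12 promyelocyte genes, 7 were in the table, where MPO, ELANE, CTSG, RNASE2 and RNASE3 were not analysed here. The granule protease genes PRTN3 and AZU1, markers of the promyelocyte, stayed under 0.6 FPKM in every library, while LYZ and CFD, which other myeloid cells also express, reached 20.1 and 10.98 FPKM. The summed promyelocyte level was 29.1 to 32.7 FPKM over the 4 libraries, with CFD and CLEC11A higher and LYZ lower. The globin levels and the near absence of PRTN3 and AZU1 go against the label, so the cells are called the libraries labelled NB4. Of the 12 further myeloid genes, 11 were in the table. Their sum was 50.1 FPKM in both controls against 84.0 and 80.9 FPKM in the knockdown. Of the 4 tested, CD68 alone was called higher and none lower, with 10.9% of all tested genes called higher. The 6 lymphoid genes in the table summed to 33.5 and 34.8 FPKM in the controls and 68.1 and 57.4 FPKM in the knockdown, nearly all of it CD3D. Alone of them CD3D was tested, and it was called higher (log2 difference 0.88, adjusted p 0.0018 in limma). The part of these markers in the results below was not tested.

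CEBPG itself, at chr19:33373709-33382686 of hg38, was measured first. In control cells its level was 17.1 and 18.1 FPKM, and in knockdown cells 6.91 and 7.96 FPKM. Both knockdown libraries lay below both controls, at 42.2% of the control mean. The difference was -1.14 on the log2(FPKM + 1) scale, with an SE of 0.082 and an adjusted p of 0.000836. All tests are the 2-sided moderated test of limma on log2(FPKM + 1), adjusted by Benjamini-Hochberg. Gene sums were adjusted over all 10968 genes and transcripts over all 15795 transcripts whose mean reached 1 FPKM. A gene is called where the adjusted p is under 0.05. In the fit over transcripts, NM_001806, which holds nearly all of the CEBPG level, had an adjusted p of 0.0587 and was not called. A log2 difference on this scale understates the change of genes with low FPKM.

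Both of the expressed 4E-BP genes fell upon CEBPG knockdown, and EIF4EBP1 fell most. EIF4EBP1 was at 139 and 123 FPKM in control cells but at 33.6 and 33.3 FPKM in knockdown cells. EIF4EBP2 went from 23.1 and 22.6 FPKM to 11.4 and 11.6 FPKM. For both genes the groups lay well apart, and the libraries of one group lay close together. EIF4EBP1 was left at 25.5% of its control level (131 ± 10.95 against 33.5 ± 0.184 FPKM, SD, n = 2 per group). EIF4EBP2 was left at 50.2% (22.9 ± 0.358 against 11.5 ± 0.105 FPKM, SD, n = 2 per group). In bulk RNA, fewer cells of a kind and less RNA per cell cannot be told apart.

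For EIF4EBP1 the log2 difference in limma was -1.94 (95% interval -2.10 to -1.77, adjusted p 0.000164), the lowest among the 5440 tested genes whose mean reached 10 FPKM and the second lowest of all 10968. For EIF4EBP2 it was -0.93 (95% interval -1.08 to -0.79, adjusted p 0.00072 in limma), at rank 53 from the lowest. Both calls held under each of the 11 alternatives fitted to gene sums, with adjusted p of at most 0.021 for EIF4EBP1 and 0.0231 for EIF4EBP2. EIF4EBP1 lies at chr8:38030534-38060365 and EIF4EBP2 at chr10:70404145-70428618 (RefSeq, hg38). Each is represented by 1 transcript in the table, NM_004095 and NM_004096, so for them the gene level is the transcript level. In the fit over all transcripts NM_004095 had an adjusted p of 0.0405 and NM_004096 one of 0.0587, so there the call of EIF4EBP2 was lost. The call of NM_004095 was lost in its turn with any 1 library left out, with differences of -2.02 to -1.85. It was also lost at a pseudocount of 0.1, without the filter and with a replicate block, and held under median-ratio scaling. The filter of 5 FPKM, one-sum scaling and the fit without a trend are not reported for transcripts.

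EIF4EBP3, which encodes the least studied 4E-BP, was hardly detected. Its single transcript NM_003732 (gene at chr5:140547662-140549576) was at 0.237 and 0.637 FPKM in the controls and 0.289 and 0.371 FPKM in the knockdown. The groups overlapped, and the gene was under the filter of 1 FPKM and was not tested. Its exons are shared with the readthrough gene ANKHD1-EIF4EBP3, which stood at 18.4 and 14.9 FPKM in the controls and 16.0 and 19.3 FPKM in the knockdown, again overlapping. Reads of the shared exons could be assigned to either gene, so the level of EIF4EBP3 is uncertain.

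Of the 10 genes, 9 passed the filter and 3 were called: EIF4EBP1, EIF4EBP2 and EIF4E2, all lower in the knockdown. That is 33.3% of those tested, while 9.99% of all tested genes were called lower, 10.9% were called higher and 20.9% were called in either direction. The groups did not overlap for 8 of the 9, of which 6 were lower and 2 higher. Over all tested genes the groups did not overlap for 64.8%, with 30.5% lower, so the count of 8 says little beyond the background. An unadjusted p under 0.05 in limma was found for 6 of the 9 and for 37.0% of all tested genes. The median log2 difference over the 9 genes was -0.18 and that over all tested genes was 0.015. The 10 genes were chosen with earlier results of these data known, so these comparisons are not independent of the data.

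**Figure D1:**
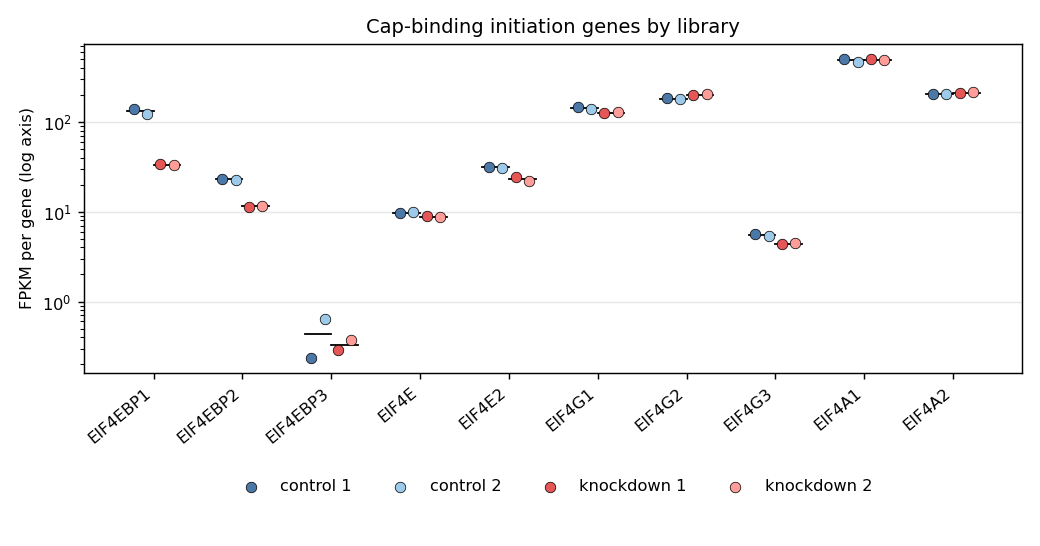
Level of each of the 10 genes in FPKM on a log axis in the 2 control and 2 knockdown libraries, a point per library and a line at each group mean. The knockdown points of EIF4EBP1 sit at 33.6 and 33.3 FPKM under controls at 139 and 123 FPKM, while those of EIF4A1 and EIF4A2 sit at the control level.

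The promoter of each gene was read from RefSeq (GRCh38.p14), from 250 bases before to 50 after the annotated start. Windows were found for 9 of the 10 genes, 14 windows in all; EIF4EBP1 was not among them. The 4 sequences shown hold the 250 bases before the start, 5′ to 3′ on the strand of the gene. EIF4EBP2 and EIF4E2 are shown because they were called, EIF4E because it is the target of the 4E-BPs, and EIF4G1 because, like EIF4E, it holds more than 1 E-box. Capitals mark CACGTG (the E-box bound by factors such as MYC) in EIF4E and EIF4G1, and TGACGT, a core of ATF and CREB sites, in EIF4EBP2, where it reads ACGTCA on the strand shown. No capitals are used in EIF4E2, which held none of the motifs searched. The windows are EIF4E at chr4:98929134-98929383 (minus strand), EIF4G1 at chr3:184314356-184314605 (plus), EIF4EBP2 at chr10:70403895-70404144 (plus) and EIF4E2 at chr2:232550439-232550688 (plus).
EIF4E: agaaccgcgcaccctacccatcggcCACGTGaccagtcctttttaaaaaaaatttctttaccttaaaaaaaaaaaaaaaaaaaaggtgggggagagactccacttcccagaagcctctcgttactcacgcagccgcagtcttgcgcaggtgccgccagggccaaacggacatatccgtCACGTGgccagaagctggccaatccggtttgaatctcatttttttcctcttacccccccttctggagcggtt
EIF4G1: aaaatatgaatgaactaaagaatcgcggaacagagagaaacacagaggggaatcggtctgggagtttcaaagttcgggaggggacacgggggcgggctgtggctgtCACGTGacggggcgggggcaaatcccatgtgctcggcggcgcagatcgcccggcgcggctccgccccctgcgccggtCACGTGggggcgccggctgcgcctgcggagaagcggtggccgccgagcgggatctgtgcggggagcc
EIF4EBP2: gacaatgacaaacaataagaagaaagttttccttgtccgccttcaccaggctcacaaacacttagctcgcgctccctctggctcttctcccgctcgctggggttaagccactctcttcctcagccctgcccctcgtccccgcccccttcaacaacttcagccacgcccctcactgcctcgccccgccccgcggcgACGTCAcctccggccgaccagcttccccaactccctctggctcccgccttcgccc
EIF4E2: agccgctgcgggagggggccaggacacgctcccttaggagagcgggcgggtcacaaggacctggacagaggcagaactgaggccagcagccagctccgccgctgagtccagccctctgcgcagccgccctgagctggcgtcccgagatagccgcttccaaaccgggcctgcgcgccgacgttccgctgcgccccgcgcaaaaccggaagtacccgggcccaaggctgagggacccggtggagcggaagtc

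On both strands, the composite element TGATGNAAN, at which C/EBP and ATF factors can pair, was found in none of the 14 windows. It was present in 1 of 2 windows of CEBPG and in 3.62% of 34943 promoters of this length. The letters CACGTG were found 225 and 72 bases before the start in EIF4E, 144 and 67 bases before it in the first EIF4G1 window, and 13 bases before it in EIF4EBP3. One or more copies were held by 7.23% of all promoters, and 2 or more by 0.661%. The letters TGACGT occurred once each in EIF4EBP2, EIF4EBP3 and EIF4A1, and in 7.97% of all promoters. The last 2 motifs were chosen after these windows had been read. Of the genes with CACGTG or TGACGT, EIF4EBP2 was called lower, EIF4E, EIF4G1 and EIF4A1 were not called, and EIF4EBP3 was not tested. A match of letters is not a binding site, and its absence here says nothing about sites elsewhere.

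The 4E-BP level was then set against the level of its target EIF4E. In each library the FPKM of the 3 genes of 4E-BPs were summed and divided by the FPKM of EIF4E. The quotient was 16.8 and 14.9 in control cells and 5.09 and 5.23 in knockdown cells. It was thus 3.07-fold lower in the knockdown (log2 difference -1.62, pooled SD 0.088), and the groups lay far apart against the spread within them. No p is given for quotients of these genes. Leaving out any 1 library gave log2 differences from -1.70 to -1.53, but with the highest transcript of each gene alone it was -0.37, which is taken up with the EIF4E transcripts.

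Taken singly, EIF4EBP1 to EIF4E was 14.4 and 12.5 in the controls and 3.77 and 3.85 in the knockdown. EIF4EBP2 to EIF4E was 2.39 and 2.30 against 1.28 and 1.34. The first quotient fell further than the second, so the mixture of the 4E-BP mRNAs also differed between the groups. EIF4EBP1 made up 85.6% and 84.1% of the summed 4E-BP FPKM in the controls and 74.2% and 73.6% in the knockdown, and EIF4EBP1 to EIF4EBP2 went from 6.01 and 5.46 to 2.94 and 2.88. With EIF4E2 added to the denominator, the 4E-BP sum per cap-binding FPKM was 3.93 and 3.61 in the controls and 1.36 and 1.48 in the knockdown.

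**Figure D2:**
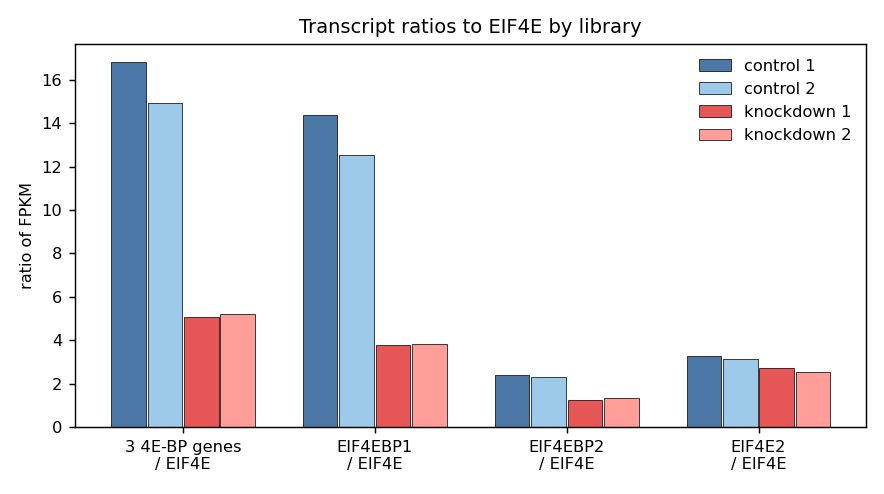
Quotient of FPKM to that of EIF4E within each library, on a linear axis, for the 4E-BP sum, EIF4EBP1, EIF4EBP2 and EIF4E2, with a bar per control or knockdown library. The 4E-BP sum to EIF4E stands at 16.8 and 14.9 in the controls and at 5.09 and 5.23 in the knockdown, and EIF4EBP1 makes up most of it.

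EIF4E, the cap-binding subunit of eIF4F and a gene with 2 E-boxes in its promoter, was not called, neither as a gene nor in any of its transcripts. The gene, at chr4:98879276-98929133, was at 9.66 and 9.84 FPKM in the controls and 8.91 and 8.66 FPKM in the knockdown, or 90.1% of control. Its log2 difference was -0.14, with a 95% interval of -0.29 to 0.02 (adjusted p 0.186 in limma). The groups did not overlap, but the interval includes no change as well as a decrease of 0.29. Among the 3 transcripts, NM_001968 was at 7.82 and 5.94 FPKM in the controls and 2.17 and 3.08 FPKM in the knockdown. NM_001130678 went the other way, from 0.356 and 0.840 FPKM to 2.90 and 1.65 FPKM. NM_001130679 was at 1.48 and 3.05 FPKM in the controls and 3.83 and 3.93 FPKM in the knockdown.

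The share of NM_001968 in the EIF4E sum was thereby 81.0% and 60.4% in the controls and 24.4% and 35.5% in the knockdown, without overlap. The groups did not overlap for any of the 3 transcripts, in level or in share, but this is common with 2 libraries per group: it held for the level of 53.9% of all tested transcripts and for the share of 39.1% of the 10383 tested transcripts of genes with more than 1. None of the 3 passed adjustment over the 15795 transcripts tested. The log2 difference was -1.12 for NM_001968 (adjusted p 0.110 in limma), 1.03 for NM_001130678 (adjusted p 0.196) and 0.62 for NM_001130679 (adjusted p 0.320). For NM_001130679 it was 0.27 without control library 1 and 0.98 without control library 2. With 0.1 added to FPKM in place of 1, the 3 differences were -1.36, 1.81 and 0.84 in the same order. Transcript FPKM depend on how reads of shared exons are divided, which these values cannot show. The choice bears on the quotient above: the -0.37 found with the highest transcript of each gene alone sets the 4E-BPs against NM_001968, which is highest over the mean of the 4 libraries and in the controls, while NM_001130679 was higher in both knockdown libraries.

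EIF4E2, the gene of the repressor 4EHP at chr2:232550689-232583644, fell to 74.5% of its control level. It was at 31.6 and 30.8 FPKM in the controls and 24.4 and 22.0 FPKM in the knockdown, without overlap. The log2 difference was -0.41 (95% interval -0.58 to -0.25, adjusted p 0.0100 in limma). The call rested on knockdown library 2, without which the log2 difference was -0.34 and the adjusted p 0.066. Its main transcript NM_004846 was at 25.6 and 25.0 FPKM in the controls and 18.9 and 16.1 FPKM in the knockdown. The minor transcript NM_001282958 stood the other way round, at 0.741 and 0.626 FPKM against 1.22 and 1.45 FPKM, and neither passed adjustment (adjusted p 0.117 and 0.285 in limma). Per EIF4E, EIF4E2 was at 3.27 and 3.13 in the controls and 2.74 and 2.54 in the knockdown.

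None of the scaffold genes was called, and their levels were between 80.8% and 111% of control. EIF4G1, the main scaffold of eIF4F at chr3:184314606-184335358, was at 144 and 141 FPKM in the controls and 124 and 127 FPKM in the knockdown. EIF4G3, its less abundant relative at chr1:20806292-21176897, was at 5.58 and 5.36 FPKM in the controls and 4.37 and 4.47 FPKM in the knockdown. EIF4G2, which encodes DAP5 at chr11:10797046-10808926, was at 184 and 179 FPKM in the controls and 196 and 206 FPKM in the knockdown. The groups did not overlap for any of the 3, with EIF4G1 and EIF4G3 lower and EIF4G2 higher in the knockdown, as for 64.8% of all tested genes.

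EIF4G1 had a log2 difference of -0.18 (95% interval -0.31 to -0.05, adjusted p 0.0613 in limma), EIF4G3 one of -0.26 (-0.44 to -0.07, adjusted p 0.0565) and EIF4G2 one of 0.15 (0.01 to 0.29, adjusted p 0.112). For EIF4G1 and EIF4G3 the adjusted p fell under 0.05 once the columns were rescaled by their median ratio, at 0.0199 and 0.0415 respectively, and that of EIF4G1 also when the columns were scaled to one sum, at 0.0176. The 3 intervals exclude 0 and leave room for decreases of up to 0.31 and 0.44 and for an increase of up to 0.29. The decreases and the increase offset each other in the scaffold sum, which was 334 and 325 FPKM in the controls and 325 and 338 FPKM in the knockdown.

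Of the 7 transcripts of EIF4G1, NM_198241 held most of the sum, with a share of 75.4% and 78.2% in the controls and 65.4% and 78.3% in the knockdown. The low share belonged to knockdown library 1, where NM_182917 reached 11.1 FPKM against 4.24 and 4.11 FPKM in the controls and 4.85 FPKM in knockdown library 2. For EIF4G2 it was knockdown library 2 that stood apart. Its transcript NM_001042559 was at 53.5 FPKM there and between 22.6 and 27.1 FPKM in the other libraries. In both genes the transcript levels of the 2 knockdown libraries differed more than their gene sums did.

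The helicase genes were the most abundant of the 10 and were level between the groups. EIF4A1, the main helicase of eIF4F at chr17:7572825-7579006, was at 501 and 469 FPKM in the controls and 501 and 486 FPKM in the knockdown. EIF4A2, its close relative at chr3:186783577-186789897, was at 206 and 205 FPKM in the controls and 207 and 213 FPKM in the knockdown. The log2 difference was 0.03 for EIF4A1 (95% interval -0.12 to 0.18, adjusted p 0.796 in limma) and 0.03 for EIF4A2 (95% interval -0.10 to 0.16, adjusted p 0.717). Both intervals exclude a change of the size seen for EIF4E2. A minor EIF4A1 transcript, NM_001204510, was at 1.04 and 4.06 FPKM in the controls and 4.70 and 8.40 FPKM in the knockdown (log2 difference 1.19, adjusted p 0.327 in limma). Its difference was 0.53 without control library 1 and 1.84 without control library 2. The readthrough gene SENP3-EIF4A1 shares exons with EIF4A1 and was at 1.03, 0.632, 1.92 and 6.36 FPKM in control 1, control 2, knockdown 1 and knockdown 2. It was called higher (log2 difference 1.35, adjusted p 0.0489 in limma), a call lost without control 1, control 2 or knockdown 2, at adjusted p of 0.0681, 0.134 and 0.0711, and without knockdown 2 the difference was 0.68. Reads of the shared exons could be assigned to either gene.

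**Figure D3:**
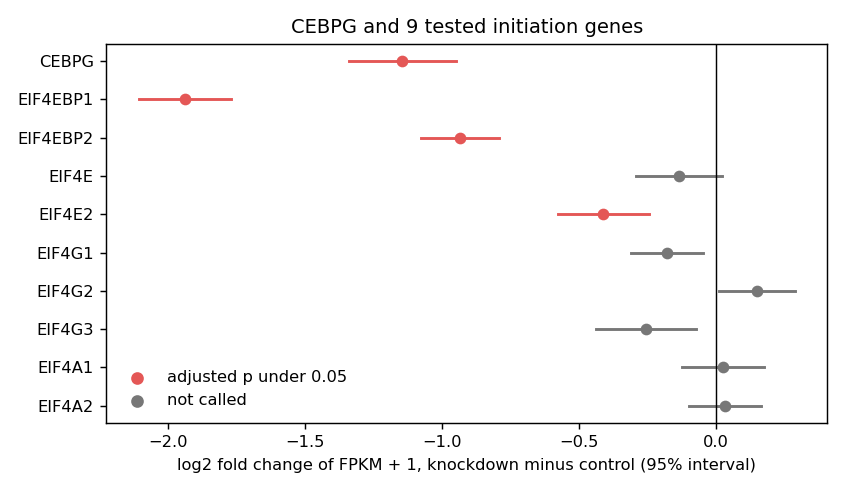
Log2 difference (knockdown minus control, on log2(FPKM + 1)) with its 95% interval from limma for CEBPG and the 9 tested genes. The called genes EIF4EBP1, EIF4EBP2 and EIF4E2 lie at -1.94, -0.93 and -0.41; the intervals of EIF4G1 and EIF4G3, which were not called, also lie below 0 and that of EIF4G2 above it, while those of EIF4E, EIF4A1 and EIF4A2 span 0.

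Summed by role, the 4E-BP genes were at 162 and 147 FPKM in the controls and 45.3 FPKM in both knockdown libraries, or 29.3% of control. The cap-binding genes were at 41.2 and 40.6 FPKM against 33.3 and 30.7 FPKM, or 78.2%. The scaffold and helicase sums came to 101% and 102% of control. Of these sums the 4E-BP sum differed most in proportion. In the cap-binding sum EIF4E2 was called and EIF4E was not.

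The order of the levels was the same in both groups, as FPKM are per length and can be set between genes: EIF4A1, EIF4A2, EIF4G2, EIF4G1, EIF4EBP1, EIF4E2, EIF4EBP2, EIF4E, EIF4G3 and EIF4EBP3. Every neighbour in that order had ranges that did not overlap. In the controls the closest neighbours were EIF4G1 and EIF4EBP1, 1.70 FPKM apart at their nearest libraries. In the knockdown EIF4G1 lay 3.76-fold above EIF4EBP1, and EIF4A2 and EIF4G2 were the closest pair, 1.05 FPKM apart.

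At transcript level 20 of the 27 transcripts passed the filter, and 1 was called, NM_004095 of EIF4EBP1 (adjusted p 0.0405 in limma). Over all tested transcripts 0.158% were called. An unadjusted p under 0.05 in limma was found for 6 of the 20 and for 20.3% of all tested transcripts. NM_004096 of EIF4EBP2 had an adjusted p of 0.0587. A log2 difference over 1 in size was found for 4 of the 20, which are NM_004095, NM_001968, NM_001130678 and NM_001204510. This is 20.0% against 3.48% of all tested transcripts. Their genes were chosen with earlier results known, so this share is not independent of the data. The count fell to 1 without control library 1 and to 2 without knockdown library 1. Without control library 1 the differences were -0.95 for NM_001968, 0.81 for NM_001130678 and 0.53 for NM_001204510. These 3 transcripts of EIF4E and EIF4A1 did not pass adjustment.

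**Figure D4:**
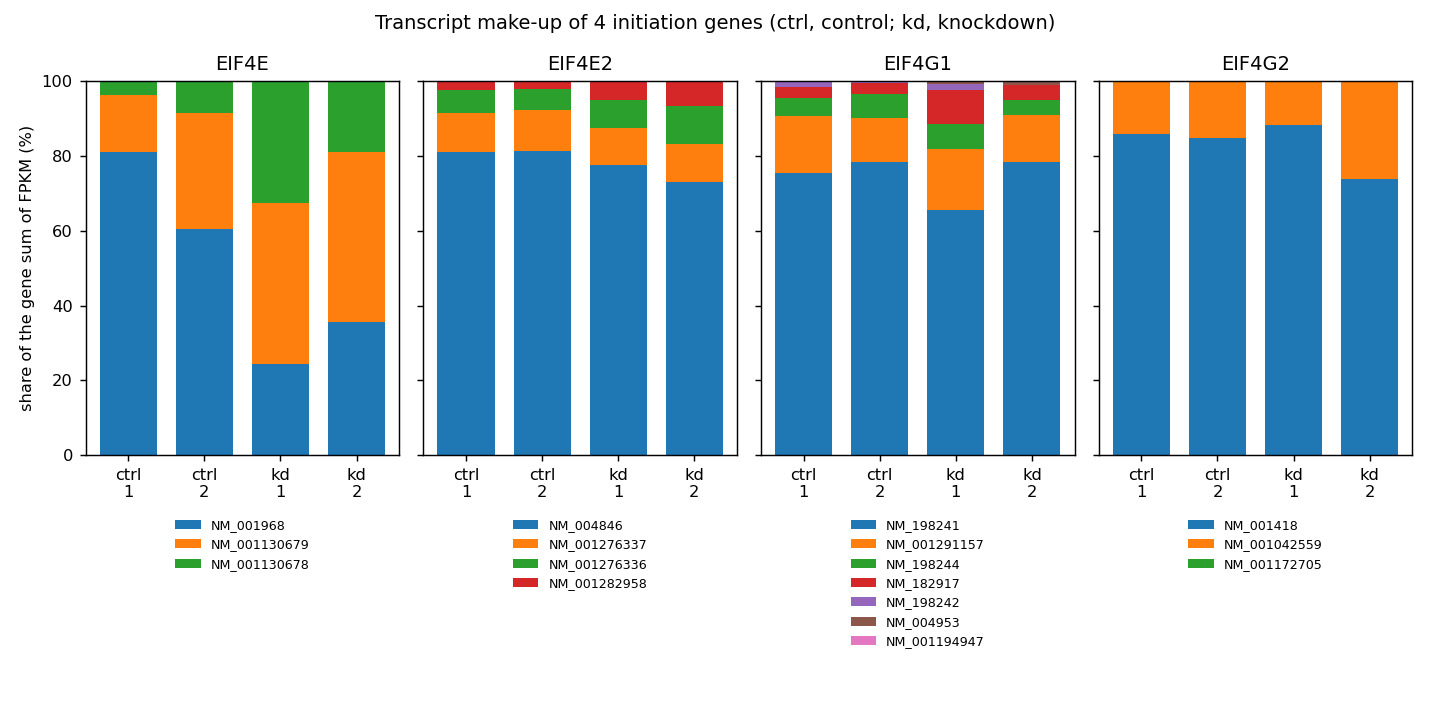
Share of each transcript in the FPKM sum of its gene, in percent, stacked for each control (ctrl) and knockdown (kd) library of EIF4E, EIF4E2, EIF4G1 and EIF4G2. In EIF4E the share of NM_001968 is 81.0% and 60.4% in the controls and 24.4% and 35.5% in the knockdown.

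Further lists place these genes within translation initiation: other partners of the cap complex, mTORC1, the eIF3 subunits, the eIF2 and scanning factors, and mRNAs known to depend on eIF4E. Of 77 distinct genes in the table, 74 were tested, 4 were higher and 14 lower. This is 5.41% higher and 18.9% lower, while 10.9% of all tested genes were called higher and 9.99% lower. The lists were also chosen with earlier results known, so these shares are not independent of the data. Among the partners of the cap complex, 1 of 21 tested genes was higher and 4 were lower, beside the same 10.9% and 9.99%, with a median log2 difference of -0.08. These were MKNK2, a kinase of eIF4E, at 0.39, and GIGYF2, the partner of 4EHP, at -0.60, PAIP1, a partner of poly(A)-binding protein, at -0.51, PPM1G, a phosphatase of 4E-BP1, at -0.31, and EIF4H, a helper of eIF4A, at -0.26. GIGYF2 thus fell together with EIF4E2, from 12.4 and 12.0 FPKM in the controls to 7.89 and 7.60 FPKM in the knockdown (adjusted p 0.00266 in limma).

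In mTORC1 and its regulators, 1 of 10 tested genes was higher and 2 were lower, beside 10.9% and 9.99% of all tested genes, with a median of 0.03. RPTOR, the subunit that recruits the 4E-BPs, stood at -0.40, AKT1S1, an inhibitor of the complex, at -0.48, and TSC2, a brake on its activator, at 0.26. These calls were not stable: TSC2 was lost with any 1 library left out, RPTOR was kept without control library 2 alone, and AKT1S1 was lost without knockdown library 2 (adjusted p 0.0898 in limma). Of the 13 eIF3 subunits, 2 were lower and none was higher, EIF3A at -0.46 and EIF3H at -0.25, with a median of -0.03. Of 19 eIF2 and scanning factors, 3 were lower and none was higher (EIF2S2 at -0.42, EIF2B2 at -0.36 and EIF5B at -0.34), with a median of -0.07. Called lower were thus 15.4% of the eIF3 and 15.8% of the eIF2 and scanning genes, beside 9.99% of all tested genes, which rests on 2 and 3 genes. The differences of the called genes were smaller than those of EIF4EBP1 and EIF4EBP2.

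Among mRNAs whose translation depends on eIF4E, 2 of 11 tested genes were higher and 3 lower, beside 10.9% and 9.99% of all tested genes, with a median of -0.08. HIF1A, a regulator of the response to low oxygen, rose most, from 9.07 and 10.03 FPKM to 14.7 and 15.7 FPKM, a log2 difference of 0.62 (adjusted p 0.00374 in limma), and BCL2L1, an inhibitor of apoptosis, stood at 0.30. MYC was at -0.31, the cyclin CCND1 at -0.32 and BIRC5 (survivin) at -0.24. RNA levels hold no measure of translation. The list counts rested on both knockdown libraries: without either of them, fewer of the 18 calls were made. The count of called genes over all tested genes fell likewise. PAIP1, GIGYF2, EIF3A, EIF2S2 and HIF1A were called with any 1 of the 4 libraries left out.

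**Figure D5:**
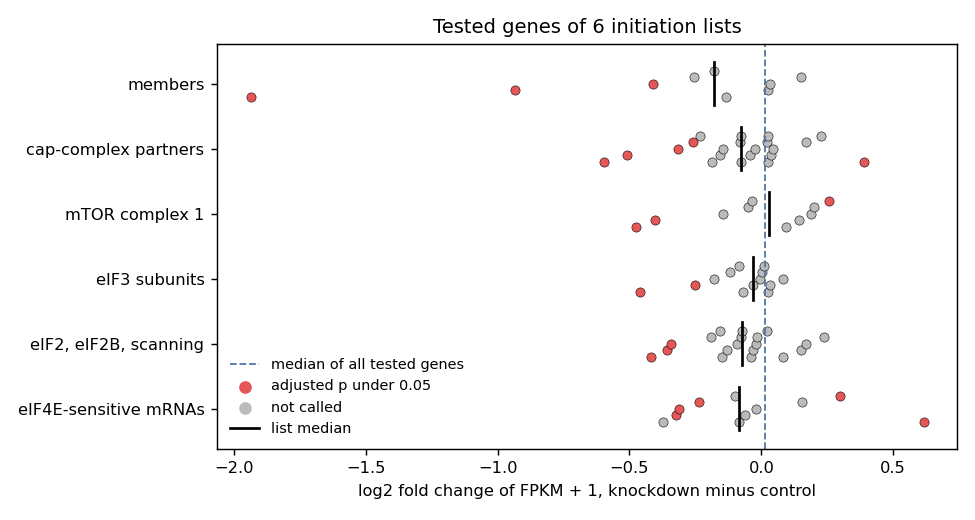
Log2 difference (knockdown minus control) of each tested gene among the 10 genes (members) and on each list, with called genes in red, a bar at each list median and a dashed line at the median of all tested genes. EIF4EBP1 at -1.94 and EIF4EBP2 at -0.93 lie below every other gene of the plot, of which GIGYF2 at -0.60 is the lowest that was called.

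EIF4EBP1 was also set beside its neighbours on chromosome 8, the 3 genes in the table on each side. RAB11FIP1, an effector of Rab11 on the side of BRF2, rose by 0.40 (adjusted p 0.00764 in limma), and STAR, a cholesterol carrier on the other side, was lower by the test at -0.20 (adjusted p 0.0445). Without knockdown library 2 the adjusted p of RAB11FIP1 was 0.0573, and with any 1 library left out that of STAR was between 0.0762 and 0.194. BRF2, ASH2L and LSM1 were at -0.09, 0.04 and -0.07 and were not called, and ADGRA2 was under the filter. None of the 5 tested neighbours was lower by a size near the -1.94 of EIF4EBP1. Among genes whose mean reached 10 FPKM, those whose profile over the 4 libraries lay nearest to EIF4EBP1, by the Euclidean distance of centred log2(FPKM + 1), were NDUFAB1 (a mitochondrial acyl carrier protein, distance 0.440), CHCHD4 (0.645), SLC2A3 (a glucose transporter, 0.668) and PPIL1 (0.669). NDUFAB1 was at 116 and 118 FPKM in the controls and 40.6 and 40.1 FPKM in the knockdown.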

How the data were processed

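Filtered reads were mapped by the authors with HISAT (HISAT2 2.0.5 and hg38 in the submitters' processing notes), and FPKM were calculated. The quantifier and the annotation release are not given in the sources used here. The authors deposited 1 table of FPKM per RefSeq transcript with a column per library; of 29265 rows, 183 without any value and 164 without a symbol (0.250% of FPKM) were dropped, and transcripts were summed per symbol. FPKM keep no counts: among 2798 low genes with a single transcript, the most common ratio of the controls held 0.286%, so whole reads were not recovered and precision from depth cannot be given. The FPKM sum per library was 345340 to 366139, and 10875 to 10964 genes reached 1 FPKM.

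Values were compared as log2(FPKM + 1) in limma 3.58.1 (R 4.3.3), 2 control against 2 knockdown libraries without a block, with empirical Bayes moderation and a mean trend, for genes or transcripts with a mean of at least 1 FPKM. In a self-test of the script on the 10968 genes, 200 genes were given a change and each gene varied by its observed SD. At an adjusted p under 0.05 in limma, 27% of changes of 0.5 and 75% of changes of 1 (log2) were recovered, with 0 unchanged genes called. In the data 2288 genes were called, so these rates do not describe the fit of the data. Alternatives were a pseudocount of 0.1, no filter, a filter of 5 FPKM, median-ratio and one-sum scaling, a replicate block, no trend, transcripts for genes, and each library left out. The 10 genes and all lists were chosen with earlier results of these data known. Named were these genes and CEBPG, called list members (at most 6 per list), transcripts past a log2 difference of 1, 3 neighbours per side and the 5 nearest profiles, of which 1 is not reported here; other transcripts, readthrough genes and markers were named after their values were seen. Gene positions and promoters come from RefSeq (GRCh38). A planned search of protein sequences was not run.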

Additional observations from a re-analysis of the deposited data

How the results depend on the processing

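The calls of CEBPG, EIF4EBP1 and EIF4EBP2 held under all 11 alternatives fitted to gene sums; in the fit over transcripts those of CEBPG and EIF4EBP2 were lost (adjusted p 0.0587 for both main transcripts, by limma). Against 2288 genes called of 10968 tested, 882 of 16504 were called without the filter, and 25 transcripts were called when transcripts were tested in place of genes (3213 at an unadjusted p under 0.05). Leaving out 1 library gave 825 to 1925 called genes, with 825 without knockdown library 1 and 838 without knockdown library 2. Of the 10 genes, 5 were called in place of 3 under median-ratio scaling, 4 under one-sum scaling, and 2 to 3 with 1 library left out. The 18 list calls became 9 without the filter and 6 to 18 with 1 library left out. The single transcript call became 0 at a pseudocount of 0.1 and 0 without the filter (7 at an unadjusted p under 0.05 by limma in both), 2 under median-ratio scaling, and 0 to 0 with 1 library left out (4 to 7 at an unadjusted p under 0.05). The log2 difference of the 4E-BP sum to EIF4E, -1.62, was -0.37 with the highest transcript of each gene alone, and -1.70 to -1.53 with 1 library left out.

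Nothing in the labels says what libraries of one replicate number share. There are 2 pairs, and libraries of one number deviated from their group means with a correlation of 0.101 across genes. Whether they share a batch was not tested. With the replicate block, 3440 genes were called, 6 of the 10 genes (EIF4G1, EIF4G2 and EIF4G3 in addition), 30 list genes and 0 transcripts of the 10 genes (6 at an unadjusted p under 0.05 by limma).

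Signs turned for some differences that were not called. With 1 library left out they ranged from -0.021 (without control 2) to 0.074 for EIF4A1, from -0.038 (without control 2) to 0.067 for NM_001416, which was also below 0 without knockdown 1 (-0.013) and under median-ratio scaling (-0.0042), from -0.70 (without knockdown 1) to 0.78 for NM_198242, also below 0 without control 2 (-0.64), from -0.022 (without knockdown 1) to 0.16 for NM_001418, from -0.22 (without knockdown 2) to 0.98 for NM_001042559, from -0.46 to 0.094 (without knockdown 2) for NM_198244, and from -0.29 to 0.095 (without control 1) for NM_001291157, also above 0 without knockdown 2 (0.073). The cause of these differences was not tested. Where 1 library is left out, the lone library of its group is assumed to vary like the other group. EIF4G3 was under the filter of 5 FPKM and gave no value there. Unknown depth limits what low FPKM can show.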

Other observations

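Some minor transcripts of the scaffold genes followed the replicate number and not the group. NM_198242 of EIF4G1 was at 1.96 and 2.16 FPKM in control 1 and knockdown 1, and at 0.145 and 0.136 FPKM in control 2 and knockdown 2. NM_003760 of EIF4G3 was at 0.260 and 0.485 FPKM in the libraries numbered 1 and was listed at 0 in those numbered 2. NM_001198802 of the same gene was listed at 0 in the libraries numbered 1 and was at 0.117 and 0.145 FPKM in those numbered 2. The gene sums of EIF4G1 and EIF4G3 showed no such order. These transcripts were picked after their values were seen, and no test was run.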
